A study of Mus musculus with 6 samples.

Results

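The 45 genes described here encode the machinery of DNA replication, from the licensing of origins to the assembly of chromatin on new DNA. They were taken as a list and matched by Ensembl identifier in the UMI tables of 6 single-cell RNA-seq libraries of mouse bladder mucosa. All 45 were present in all 6 tables, out of 21527 genes listed in any of them. The mice were wild type C57BL/6 animals aged 8 weeks. A library was made from healthy mice, from mice with acute injury (48 hours after an injection of cyclophosphamide, CPP) or from mice with chronic injury (4 rounds of CPP over 11 days), with 2 libraries per condition. The study used a lower dose per injection in chronic than in acute injury. In both it took the bladders 48 hours after the last injection. Several animals were pooled, with both sexes in each condition, and the mucosa was peeled from the bladder and digested before droplet capture. CPP is an alkylating drug whose urinary metabolites injure the urothelium, the epithelium that lines the bladder.

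Replication starts in G1, when the origin recognition complex, Cdc6 and Cdt1 load the MCM2-7 helicase onto origins. In S phase Cdc45, the GINS complex and Mcm10 activate the helicase, primase and DNA polymerase alpha prime synthesis, and the RFC complex loads the PCNA clamp that holds the elongating polymerases. RPA coats single-stranded DNA, Fen1 and Lig1 process and seal lagging-strand fragments, and Dut, Tk1, Tyms and ribonucleotide reductase (Rrm1, Rrm2) keep up the supply of nucleotides. Most of these genes are transcribed at the G1/S transition under the control of E2F factors. The healthy adult urothelium divides rarely and enters the cell cycle after injury. It holds basal cells, intermediate cells and superficial umbrella cells, of which the last can be polyploid.

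Libraries were sequenced to between 54604109 and 111985678 UMIs, and the median cell held 5530 to 9138 of them. After filters, 50032 cells remained, of which 38098 were urothelial. A pair of libraries shared 36 to 229 cell barcodes. Levels are given as UMIs of a gene scaled to a total of 1e+06 UMIs in a class of cells of a library (CPM), over the 14355 genes common to all tables. Urothelial cells were called cycling where their score for 21 S phase genes or for 54 G2/M genes, none of them among the 45, exceeded the median by over 2 median absolute deviations (MADs). Cells with a higher basal than luminal marker score were called basal, and the others superficial-marker where the mean z score of Krt20, Acer2, Upk1a, Upk2 and Upk3a exceeded 1, otherwise intermediate. In cycling cells the mean level of Krt5 was 1272, 503 and 142 CPM in basal, intermediate and superficial-marker cells, and that of Upk3a was 498, 3120 and 7900 CPM. Markers of these kinds set the calls, so that the levels describe the classes and are no check of their names. The names come from score cuts and not from clusters, with 2208 cells within 0.1 of the basal cut and 1463 within 0.1 of the superficial cut. Since the calls left many cells with few replication transcripts, results in cycling cells are also given for a stricter threshold of 4 MADs.

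The promoters of several members carry the sequence that E2F factors recognise. Promoter windows of 300 bases (250 before and 50 after the annotated start) were read from RefSeq on GRCm38.p6, where 38 of the 45 members had an entry. Gins1, Gins2, Esco2, Mcm4, Pole, Prim2 and Rfc2 had none. The motif searched was TTT, then 2 bases that were each C or G, then CGC, on either strand. A window with the motif was found for 15 of the 38 members (39.5%) and for 2.605% of 27025 genes, counting every annotated start of a gene. The CCAAT box, also searched on both strands, was found for 24 of the 38 (63.2%), against 41.1% of all genes. The stretches below are those of some of the members that have the motif and are discussed further on. They run 5′ to 3′ on the strand of the gene, with the motif in capitals. Cdt1, Clspn, Dnmt1, Lig1, Mcm3, Mcm7, Orc1, Pola1 and Pold1 also had the motif in a window and are not shown. Tk1, Rrm2, Prim1, Fen1, Ung, Rfc5, Rpa3 and Dut, also discussed, had no motif in their windows, and Esco2 had no entry. In Uhrf1 the window of another annotated start had no motif. Uhrf1, Hells and Mcm5 were among the members with the largest ratio of cycling to non-cycling cells, Mcm6 and Cdc6 were among those that differed most between compartments of the urothelium, and Rfc3 had its highest level in cycling basal cells. In Mcm5 and Mcm6 the capitals span 2 overlapping copies on opposite strands, and in Cdc6 the motif lies on the opposite strand.
Uhrf1 (chr17:56304098-56304165, plus strand): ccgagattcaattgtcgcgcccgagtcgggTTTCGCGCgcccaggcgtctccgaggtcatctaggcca
Hells (chr19:38930898-38930965, plus strand): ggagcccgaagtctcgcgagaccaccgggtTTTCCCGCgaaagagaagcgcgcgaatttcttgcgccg
Mcm5 (chr8:75109326-75109393, plus strand): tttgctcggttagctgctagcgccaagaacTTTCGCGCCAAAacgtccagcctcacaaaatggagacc
Mcm6 (chr1:128359778-128359845, minus strand): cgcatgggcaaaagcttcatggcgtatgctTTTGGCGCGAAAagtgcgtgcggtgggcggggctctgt
Cdc6 (chr11:98907983-98908050, plus strand): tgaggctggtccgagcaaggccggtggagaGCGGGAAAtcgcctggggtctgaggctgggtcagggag
Rfc3 (chr5:151651209-151651248, minus strand): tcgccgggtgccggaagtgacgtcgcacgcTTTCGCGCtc

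The first motif copy ended 177 bases before the annotated start in Uhrf1, 54 in Hells, 145 in Mcm5, 102 in Mcm6, 130 in Cdc6 and 2 in Rfc3. The 15 members with the motif had a median log2 ratio of cycling to non-cycling cells of 2.06 (range 0.66 to 3.41), and the 23 without had one of 1.52 (range 0.69 to 3.16). The ranges of both groups covered almost the same span.

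Across all urothelial cells the replication genes stood highest in acute injury. The mean of the 45 members on the log2(CPM + 1) scale was 2.84 and 2.89 in the healthy libraries, 4.36 and 3.63 in the acute ones and 3.31 and 3.39 in the chronic ones. Both acute values lay above both chronic values, and these above both healthy values, and the acute libraries differed from each other by more than those of either other group. On the linear scale the members summed to 442 ± 20.1 CPM (SD, n = 2) in healthy, 933 ± 324 in acute and 588 ± 16.5 in chronic urothelium. The share of urothelial cells called cycling was 7.87% and 11.1% in healthy, 27.8% and 18.5% in acute and 12.3% and 10.4% in chronic libraries. The acute mean exceeded the healthy mean by 13.6 percentage points (two-sided exact permutation p = 0.333, the smallest that 2 against 2 libraries allow). At 4 MADs the shares were 1.81%, 1.42%, 19.2%, 6.90%, 3.23% and 3.73% in the same order of libraries. Acute library 1 thus had the highest share and the highest module mean among the 6 libraries. In bulk sums of this kind, more cells in S phase and more RNA per such cell cannot be told apart.

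**Figure D1:**
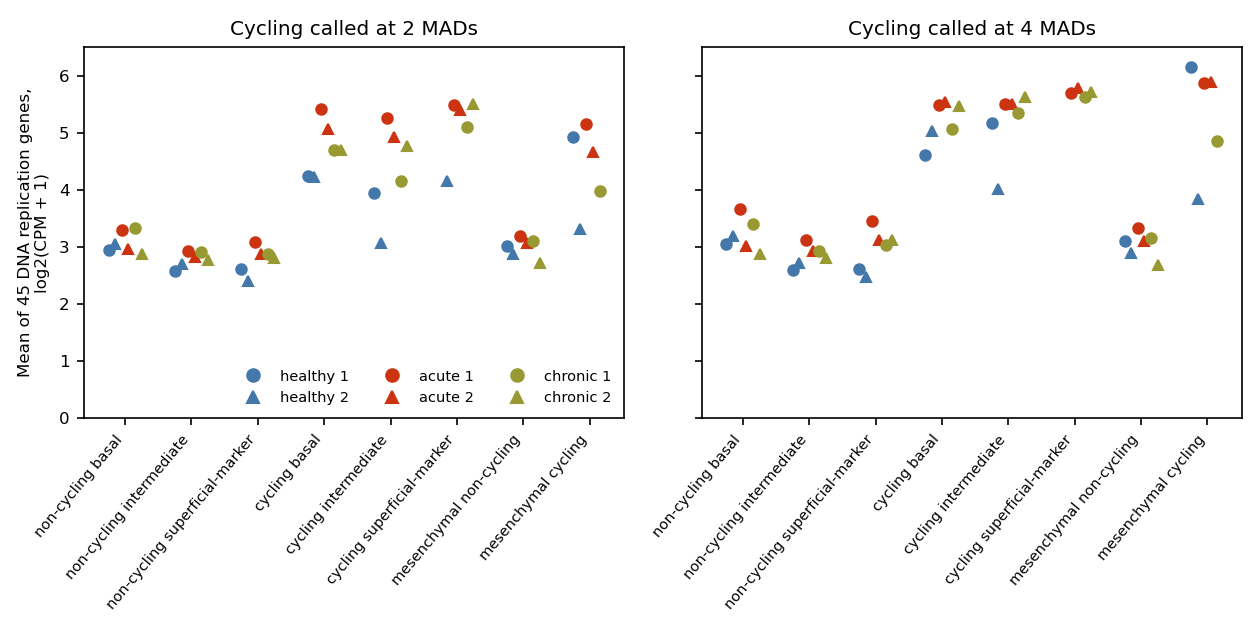
Mean of the 45 replication genes, log2(CPM + 1), in each library (a point each, coloured by condition) for the urothelial compartments and mesenchymal cells, split by cycling state, with cycling cells called at 2 MADs (left) and at 4 MADs (right). In non-cycling urothelial compartments the libraries lie close together, between 2.40 and 3.32 on the left, and in cycling intermediate cells they run from 3.07 in healthy library 2 to 5.25 in acute library 1.

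Split by cycling state, the libraries lay further apart in cycling than in non-cycling cells. In non-cycling urothelial cells the module mean was 2.64 and 2.75 in healthy, 3.03 and 2.86 in acute and 2.92 and 2.80 in chronic libraries. In cycling cells it was 4.07 and 3.65 in healthy, 5.36 and 5.05 in acute and 4.55 and 5.05 in chronic libraries. Every library had a higher mean in its cycling than in its non-cycling cells. With the stricter threshold of 4 MADs the cycling means drew together, at 5.02 and 4.79 in healthy, 5.57 and 5.59 in acute and 5.49 and 5.68 in chronic libraries, and the chronic range then enclosed the acute values. The looser calls held many cells with few members detected. Cycling intermediate cells had a median of 2 members with a UMI per cell in 5 libraries and of 12 in acute library 1, and non-cycling basal and intermediate cells had a median of 2 in every library. Cycling superficial-marker cells had medians of 3, 3, 18, 12, 8 and 18.5 in healthy, acute and chronic libraries 1 and 2, and non-cycling ones had medians of 3, 2, 3, 3, 2 and 3.

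Members differed widely in how far their level followed the cell cycle. In all 6 libraries 44 of the 45 were higher in cycling than in non-cycling urothelial cells, with a median log2 ratio of CPM + 1 of 1.64, given as a description because calls and ratios rest on the same cells. Within a compartment, 37 members were higher in every library in basal, 35 in intermediate and 36 in superficial-marker cells (5 libraries for the last). The share of all genes that were higher in every library is not given. The ratios that follow are those of all urothelial cells. Esco2, the acetyltransferase that establishes sister chromatid cohesion, had the largest ratio (3.61 ± 1.51, SD, n = 6). It was followed by Uhrf1, the factor that recruits the maintenance DNA methyltransferase (3.41 ± 0.63), and Clspn, an adaptor of the replication checkpoint (3.3 ± 1.03). Hells, a chromatin remodeller, reached 3.25 ± 0.75, the thymidine kinase Tk1 3.16 ± 0.68 and the helicase subunit Mcm5 2.91 ± 0.59. Gins1, a GINS subunit, had the smallest ratio (0.47 ± 0.34). The clamp loader subunit Rfc3 came next (0.66 ± 0.57, higher in cycling cells in 5 of 6 libraries), then the RPA subunit Rpa3 (0.69 ± 0.36). By role, the median ratio was 2.23 for flap and nick processing, 2.09 for chromatin assembly and methylation, 2.02 for the MCM helicase, 1.69 for nucleotide supply, 1.56 for origin licensing, 1.55 for helicase activation, 1.39 for polymerases and primase, 1.21 for the clamp and its loader and 0.92 for single-strand binding. The 4 other S phase factors had a median of 2.66.

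**Figure D2:**
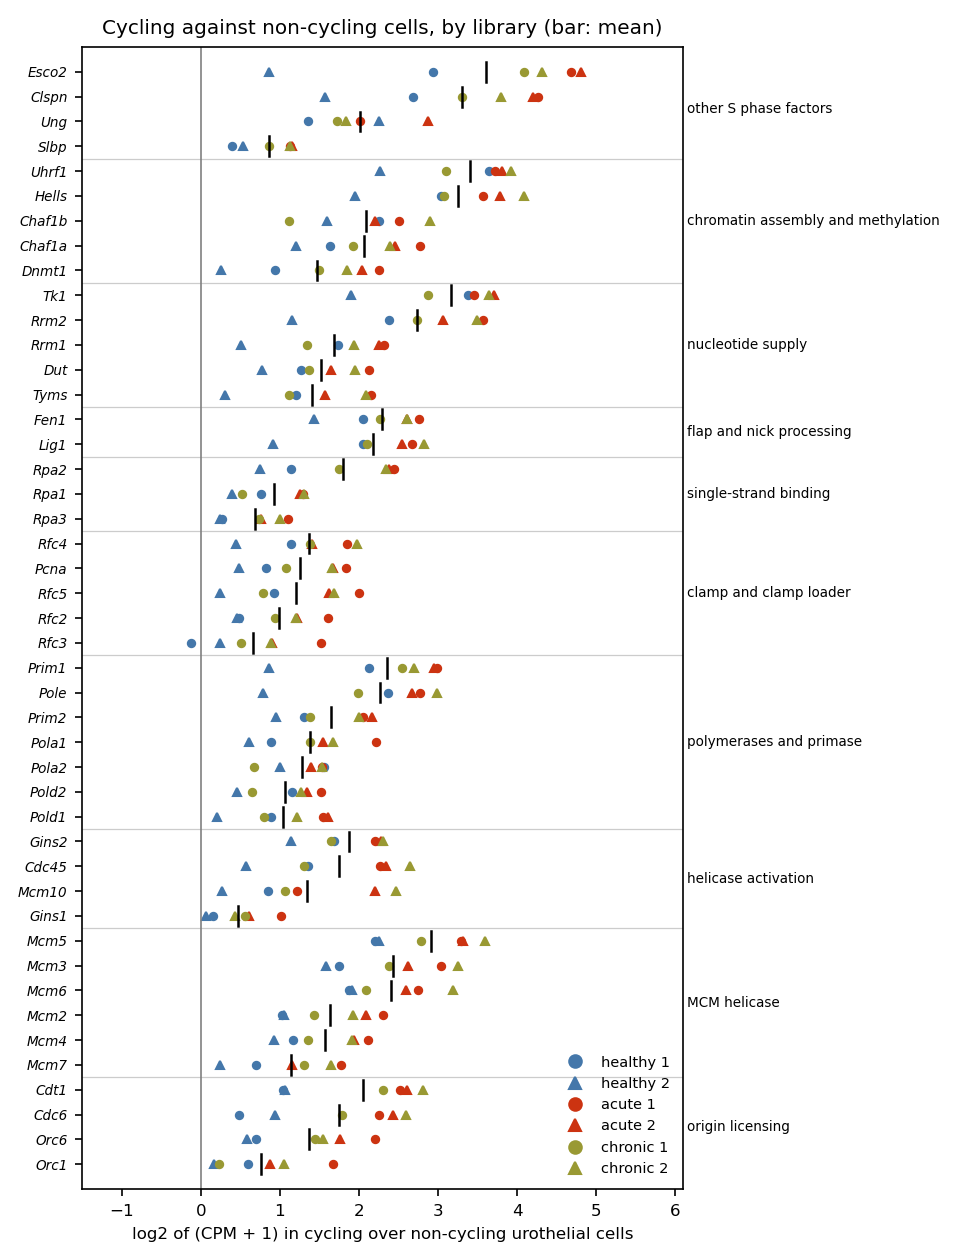
Log2 ratio of CPM + 1 between cycling and non-cycling urothelial cells for each of the 45 members, grouped by role, with a point for each of the 6 libraries and a bar for the mean. Esco2 (3.61), Uhrf1 (3.41) and Clspn (3.3) lie farthest to the right, and Gins1 (0.47), Rfc3 (0.66) and Rpa3 (0.69) nearest to 0.

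Among the licensing factors, Cdc6, the ATPase that loads the MCM helicase, was at 4.15 and 3.79 CPM in healthy, 12.1 and 7.28 in acute and 6.97 and 6.47 in chronic urothelium. Its acute levels lay above the other 4. Orc6, a subunit of the origin recognition complex, was at 10.7 and 11.4 CPM in healthy, 20.7 and 16.3 in acute and 10.2 and 11.4 in chronic urothelium, so that chronic and healthy overlapped. Cdt1, the partner of Cdc6 in licensing, was at 4.46 and 6.27, 14.3 and 8.96, and 7.19 and 7.44 CPM. Orc1, the largest subunit of the complex, was near the detection limit at 0.0540 to 1.24 CPM.

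Of the MCM helicase, Mcm5 differed most in level, from 4.06 and 3.67 CPM in healthy to 29.5 and 12.4 in acute and 7.70 and 11.1 in chronic urothelium. Its groups did not overlap in either comparison with healthy, and acute library 1 stood far above acute library 2. In cycling cells alone it was at 17.6 and 15.2, 71.0 and 50.9, and 33.5 and 62.9 CPM, and in non-cycling cells it stayed between 2.41 and 6.34 CPM. The other helicase subunits were at 4.84 to 15.1 CPM in the healthy libraries and at 7.82 to 23.8 in the acute ones. Gins2, which helps to activate the helicase, was at 8.00 and 8.81 CPM in healthy, 28.9 and 17.0 in acute and 11.2 and 15.6 in chronic urothelium.

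Among polymerase and primase genes, Prim1, the catalytic primase subunit, was at 2.21 and 1.81 CPM in healthy, 16.9 and 7.31 in acute and 5.62 and 4.74 in chronic urothelium. Pold2, a small subunit of polymerase delta, was at 12.7 and 13.1, 19.1 and 12.6, and 18.3 and 10.6 CPM, and its 3 groups overlapped. Of the clamp and its loader, Pcna was at 18.8 and 17.5 CPM in healthy, 31.9 and 21.6 in acute and 28.5 and 32.0 in chronic urothelium. Acute and chronic levels of Pcna overlapped and both lay above healthy. Rfc2, a loader subunit, was at 33.1 and 34.1, 61.7 and 44.6, and 41.5 and 44.9 CPM, whereas Rfc3 was at 15.4 and 22.6, 25.1 and 22.2, and 31.0 and 13.9 CPM with overlapping groups. Rpa3 was at 25.5 and 27.9 CPM in healthy, 42.9 and 48.4 in acute and 21.6 and 27.1 in chronic urothelium, and only its acute levels stood apart.

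In flap and nick processing, Lig1, the ligase that joins Okazaki fragments, was at 16.8 and 14.9 CPM in healthy, 59.7 and 33.6 in acute and 17.6 and 23.9 in chronic urothelium. Fen1, the flap endonuclease, was at 3.21 and 3.18, 15.0 and 7.72, and 6.51 and 5.29 CPM. Both genes were above healthy in all 4 injured libraries. In nucleotide supply, Dut, which removes dUTP, was at 36.5 and 47.5 CPM in healthy, 94.9 and 67.2 in acute and 43.7 and 41.1 in chronic urothelium. Tk1 went from 4.03 and 4.31 CPM in healthy to 39.2 and 18.2 in acute and 12.3 and 12.4 in chronic urothelium. Rrm2, the small subunit of ribonucleotide reductase, was at 5.03 and 4.68, 50.2 and 14.7, and 13.5 and 17.6 CPM, where the chronic values bracketed that of acute library 2.

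Among chromatin genes, Uhrf1 was at 2.94 and 1.59 CPM in healthy, 24.8 and 10.4 in acute and 4.03 and 8.55 in chronic urothelium. Dnmt1, the maintenance methyltransferase, was at 9.55 and 12.1, 32.9 and 17.1, and 17.1 and 23.2 CPM, with acute and chronic overlapping. Slbp, which binds the stem-loop of histone mRNAs, was at 36.7 and 30.2, 57.1 and 38.2, and 39.4 and 39.3 CPM. Esco2 (chr14:65819038-65833994) was at 0.515 and 0.337 CPM in healthy urothelium, from 17 and 11 UMIs. It stood at 15.1 and 10.4 CPM in acute and 3.40 and 4.03 CPM in chronic urothelium, from 548, 409, 126 and 109 UMIs. Its 3 groups were in the order acute, chronic, healthy without overlap. Within cycling cells Esco2 was at 6.87 and 1.24 CPM in healthy, 41.0 and 54.8 in acute and 23.8 and 30.5 in chronic libraries.

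Against the spread between libraries, few of these differences passed the test across all genes. In all urothelial cells, edgeR's quasi-likelihood test called 1 of the 45 members higher in acute than healthy at an adjusted p under 0.05, against 0.00723% of the 13840 genes tested, and none lower. This was Esco2, with a log2 fold change of 4.89 (SE 0.37, adjusted p = 0.0376), and it was the only gene of all that passed. The call was lost without TMM scaling, with a replicate block, with a stricter cell filter and without any one of the healthy or chronic libraries. All 45 members had a positive acute to healthy log2 fold change, with a median of 1.13 where the median over all genes was 0.01. At an unadjusted p under 0.05 there were 37 members, where 6.48% of all genes reached it. DESeq2, run as an alternative, called 22 members (1.93% of genes). After Esco2 the largest changes were Clspn (3.46), Uhrf1 (2.94), Pole (2.86), Tk1 (2.77), Rrm2 (2.71) and Prim1 (2.57), none with an adjusted p under 0.05 in edgeR. The smallest were Pola2 (0.25), Pold2 (0.29) and Rfc3 (0.32). By role, median log2 fold changes ran from 2.60 for the other S phase factors and 1.68 for flap and nick processing to 0.79 for single-strand binding and 0.66 for the clamp and its loader. The acute libraries also had the higher share of cycling cells, and the part of that share in these changes was not tested.

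**Figure D3:**
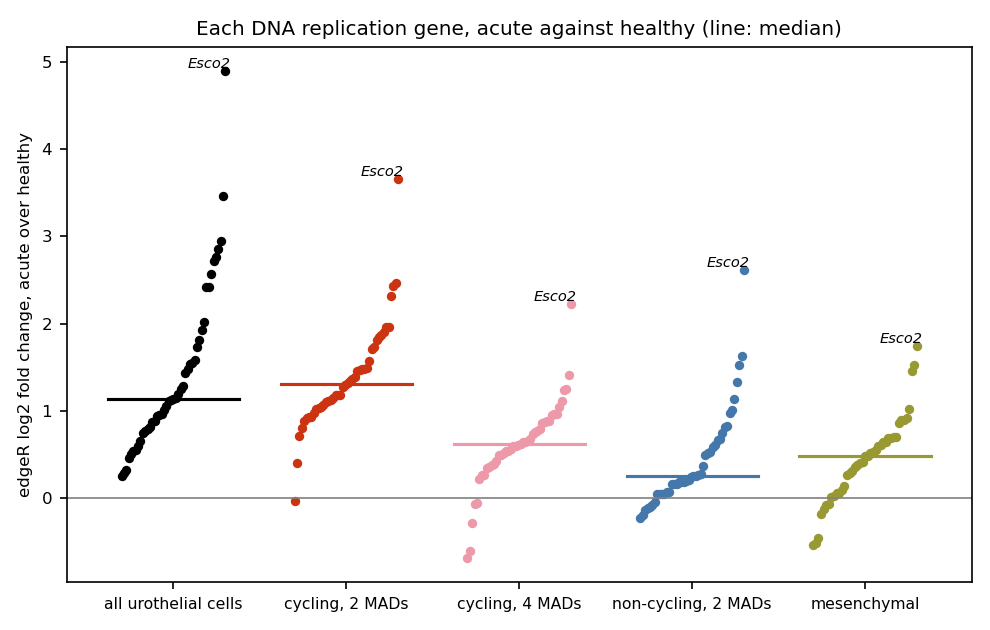
edgeR log2 fold change of acute over healthy libraries for each tested member (points, sorted) with the median (line), in all urothelial cells, in cycling cells called at 2 and at 4 MADs, in non-cycling cells and in mesenchymal cells. The median is 1.13 in all urothelial cells, 1.31 in cycling cells at 2 MADs, 0.62 at 4 MADs and 0.25 in non-cycling cells, and Esco2 has the highest point in each class.

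In chronic against healthy urothelium edgeR called 0 members (0% of all genes), with 15 at an unadjusted p under 0.05 (7.26% of all genes). The log2 fold change was positive in 39 members (median 0.52), where the share of all genes with a positive value is not given. DESeq2 called 4 members there (1.02% of genes). Between acute and chronic urothelium edgeR also called 0 members (0% of all genes), with 20 at an unadjusted p under 0.05 (6.42% of all genes) and a median log2 fold change of 0.77, and DESeq2 called 1 (0.505% of genes). These 3 comparisons share their libraries pairwise.

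Within cycling urothelial cells, edgeR called 0 of 44 tested members between acute and healthy (0.0441% of all genes), with 40 at an unadjusted p under 0.05 against 13.7% of all genes. The median log2 fold change was 1.31, and 43 members were higher in acute injury, where the share of all genes that were higher is not given. DESeq2 called 22 of the members (2.17% of genes). Esco2 had the largest value (3.66, SE 0.54, adjusted p = 0.074), followed by Clspn (2.46) and Rrm2 (2.43), whereas Pola2, a subunit of polymerase alpha, was at -0.04. With cycling cells called at 4 MADs the median was 0.62, and 18 members reached an unadjusted p under 0.05 (10.2% of genes). In chronic against healthy cycling cells edgeR called 0 members (0.00881% of genes), with 29 at an unadjusted p under 0.05 (12.1% of genes) and a median of 0.98, and DESeq2 called 13 (1.51% of genes). At 4 MADs the chronic median was 0.71, with 19 members at an unadjusted p under 0.05 (13.5% of genes), so that it then stood above the acute one. In acute against chronic cycling cells edgeR and DESeq2 called 0 members (0% and 0.183% of genes), with 4 at an unadjusted p under 0.05 in edgeR (6.63% of genes). The median was 0.34, and -0.13 at 4 MADs. Summed G2/M transcripts were at 4285 and 1663 CPM in healthy, 6491 and 5169 in acute and 3302 and 3841 in chronic cycling cells. They were thus highest in the acute libraries, with both chronic sums between the healthy ones, and their part in the acute values was not tested.

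In non-cycling urothelial cells edgeR and DESeq2 called 0 members in every comparison of conditions, where edgeR called 0% of all genes and DESeq2 0.0627% to 0.702%. For acute against healthy the edgeR median was 0.25 and 9 of 44 members reached an unadjusted p under 0.05, against 3.38% of all genes. In that comparison 37 members were higher, where the share of all genes that were higher is not given. For chronic against healthy the median was 0.23, with 7 such members against 6.74% of all genes. A test of the difference between the acute effect in cycling and in non-cycling cells called 22 of 45 members, each with the larger acute effect in cycling cells, against 3.48% of all genes called and 1.89% in this direction. Cdc6 (1.70), Dnmt1 (1.63), Cdt1 (1.60) and Rpa2 (1.56) had the largest differences on the log2 scale. The count fell to 0 with cycling cells called at 4 MADs and to 0 without healthy library 2, which had the lowest module mean in its cycling cells. The share of all genes called under these settings is not given, so that the fall need not be particular to the members. Of the 54 G2/M genes, which also served to call the cells, 6 had a larger and 1 a smaller acute effect in cycling cells at 2 MADs. At 4 MADs these counts were 0 and 16. The same test for chronic injury called 0 members (0.00734% of all genes) with 27 at an unadjusted p under 0.05 (7.82% of all genes).

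Between the compartments of the cycling urothelium the members did not move as a block. The comparison was made within libraries, over 6 libraries for basal and intermediate cells and 5 for superficial-marker cells, since healthy library 1 had 9 such cells and was left out. Cycling cells per library numbered 62 to 597 basal, 291 to 886 intermediate and 31 to 225 superficial-marker. Superficial-marker cells had more UMIs per cell (median 14543) than basal (8083) and intermediate cells (7995). Its part in these comparisons was not tested. At 4 MADs both healthy libraries fell under 20 superficial-marker cells, so that the stricter values of that class come from injured libraries.

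Against cycling intermediate cells, cycling superficial-marker cells had 31 of 44 members higher and 0 lower (edgeR, adjusted p under 0.05), where 28.8% of all genes were called and 14.1% were higher. The median log2 fold change was 0.63. At 4 MADs there were 16 higher and 0 lower (19.3% of genes called, 9.27% higher), and all 16 were among the 31. These 16 were Cdc6, Chaf1a, Chaf1b, Clspn, Fen1, Gins2, Hells, Mcm2, Mcm3, Mcm6, Pcna, Rfc5, Rpa2, Slbp, Tyms and Ung. Members of every role but polymerases and primase were thus in this set. The largest changes were those of Ung, the uracil glycosylase that removes misincorporated uracil (1.80, SE 0.27, adjusted p = 3.09e-06), and Cdc6 (1.52, SE 0.18, adjusted p = 3.15e-08). Mcm6 followed with 1.17 and Hells with 1.07. Rfc3 (-0.13), Rpa3 (-0.02) and Rfc4 (0.08) showed no call.

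**Figure D4:**
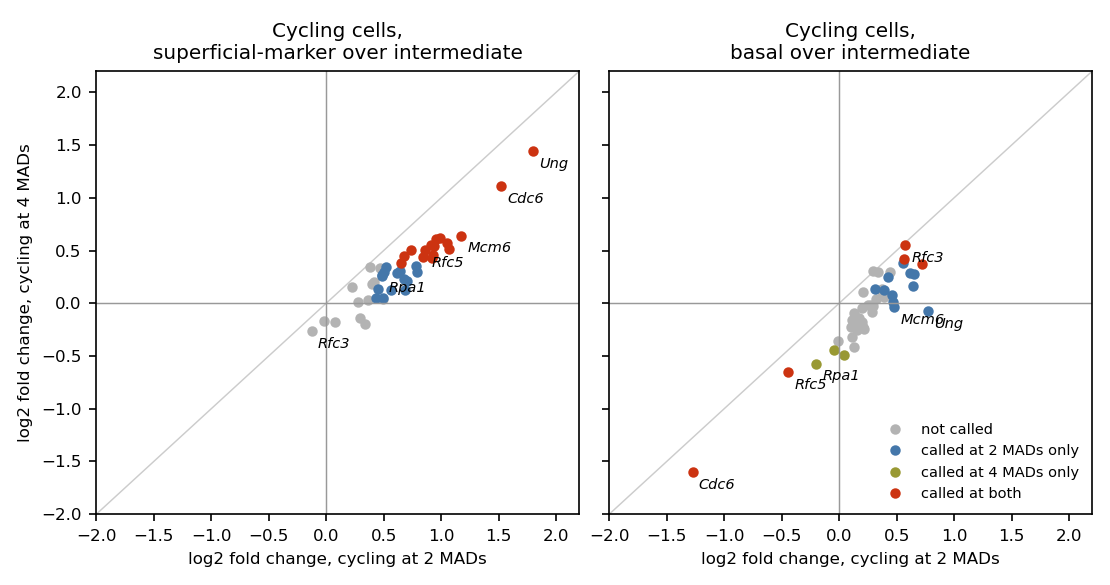
edgeR log2 fold changes of the members with cycling cells called at 2 MADs (horizontal) and at 4 MADs (vertical), for superficial-marker over intermediate cells (left) and basal over intermediate cells (right), coloured by the threshold at which the test called the member. Most points lie below the diagonal of equal values, and Cdc6 lies apart at 1.52 and 1.11 on the left and at -1.28 and -1.60 on the right.

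Cdc6 (chr11:98907801-98923940) had the widest spread over the compartments. In cycling basal cells it was at 4.67 and 4.83 CPM in healthy, 9.58 and 6.68 in acute and 0 and 6.96 in chronic libraries, and the 0 of chronic library 1 allows up to 15.7 CPM (3 UMIs, counting error only). In cycling intermediate cells it was at 6.23 and 4.18, 24 and 21.9, and 10.3 and 19.6 CPM. In cycling superficial-marker cells it was at 46.1 CPM in healthy library 2, 47.3 and 54 in acute and 48.0 and 49.9 in chronic libraries. The superficial-marker levels thus lay above every basal and intermediate level. The healthy value rests on 11 UMIs from 31 cells, and at 4 MADs the levels were 56.7 and 75.4 CPM in acute and 61.8 and 52.9 in chronic libraries, with too few healthy cells for a value. At 2 MADs, in intermediate cells both acute levels exceeded both healthy ones. Against basal cells the log2 fold change was 2.80 (SE 0.26, adjusted p = 6.93e-11), and it was 2.71 at 4 MADs (adjusted p = 3.15e-14). Basal cells were lower than intermediate cells by -1.28 (SE 0.27, adjusted p = 0.000279), with the lower level in 4 libraries, the higher one in healthy library 2 and no UMI in chronic library 1. Over the alternative settings this last value ran from -1.61 to -0.51, and the call was lost where the superficial cut was set at a z score of 0.5. Outside the cycle Cdc6 stayed low in every compartment, at 1.85 to 7.51 CPM in basal, 2.65 to 4.80 in intermediate and 4.53 to 7.87 in superficial-marker cells.

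Rfc5 (chr5:117378103-117389047), a small subunit of the clamp loader, was also highest in superficial-marker cells. In cycling basal cells it was at 26.5 and 18.1 CPM in healthy, 64.6 and 40.1 in acute and 20.9 and 59.1 in chronic libraries. In intermediate cells it was at 30.5 and 19.5, 91.0 and 64.3, and 28.6 and 56.7 CPM. In superficial-marker cells it was at 79.6 CPM in healthy library 2, 123 and 90.4 in acute and 76.0 and 103 in chronic libraries. In all 5 libraries the superficial-marker level was above the intermediate one. Superficial-marker against basal cells gave 1.31 (SE 0.16, adjusted p = 2.73e-08) and against intermediate cells 0.86 (SE 0.13, adjusted p = 3.77e-06). Basal against intermediate cells gave -0.45 (SE 0.15, adjusted p = 0.0183), but the value ran from -0.69 to -0.10 over the alternative settings and DESeq2 did not call it (adjusted p = 0.117).

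The loader subunit Rfc3 and the RPA subunit Rpa3 ran the opposite way. Rfc3 (chr5:151642756-151651242) was at 14.0 and 37.4 CPM in healthy, 61.5 and 57.6 in acute and 67.9 and 38.3 in chronic cycling basal cells. It was at 14.3 and 23.7, 38.7 and 32.4, and 44.4 and 21.7 CPM in intermediate cells, and in superficial-marker cells at 12.6 CPM in healthy library 2, 36.2 and 31.7 in acute and 32.8 and 24.4 in chronic libraries. Basal levels were above intermediate ones in 5 of 6 libraries and above superficial-marker ones in 5 of 5. The log2 fold change was 0.57 for basal against intermediate cells (SE 0.13, adjusted p = 0.000657) and -0.70 for superficial-marker against basal cells (SE 0.15, adjusted p = 0.000287). Rpa3 (chr6:8255936-8259173) gave 0.56 (SE 0.13, adjusted p = 0.000827) and -0.58 (SE 0.15, adjusted p = 0.00192) in the same 2 comparisons, from 35.8 to 100 CPM in basal, 22.3 to 69.5 in intermediate and 30.4 to 67.1 in superficial-marker cells. Rfc4 was lower in superficial-marker than in basal cells too (-0.48, SE 0.17, adjusted p = 0.0212), a call that DESeq2 did not make (adjusted p = 0.0668). The loader subunit Rfc2 was not called between these cells (0.12, SE 0.15, edgeR adjusted p = 0.542). So within the clamp loader Rfc5 was highest in superficial-marker cells and Rfc3, with Rfc4 in edgeR, was higher in basal than in superficial-marker cells, and within RPA the subunits Rpa1 and Rpa2 were higher (0.69 and 0.82) and Rpa3 lower in superficial-marker than in basal cells.

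In total, 21 members were higher and 3 lower in cycling superficial-marker than in cycling basal cells (49.4% of all genes called, 24.3% higher and 25.1% lower), with a median of 0.34. At 4 MADs there were 16 higher and 4 lower, of which 15 and 3 were called at both thresholds (48.3% of all genes called, 24.3% higher and 24% lower). The higher count was 12 with DESeq2, 10 without TMM scaling, 13 without either acute library and 11 without chronic library 2, and the lower count was 1 without acute library 1. Between cycling basal and intermediate cells 14 members were higher and 2 lower in basal cells, where 34.7% of all genes were called, 17.1% higher and 17.6% lower. The higher count was 9 without healthy library 2, 8 without chronic library 1, 4 with basal and luminal marker scores compared as z scores and 23 with the superficial cut at a z score of 0.5, and the lower count was 1 without either acute library. At 4 MADs 3 were higher (Dut, Rfc3, Rpa3) and 5 lower (Cdc6, Rfc5, Chaf1a, Gins2, Rpa1), with 34% of genes called, and the median log2 fold change of the members went from 0.29 to -0.03. The share of members called was thus close to that of all genes at 2 MADs and below it at 4 MADs. For the other settings in this paragraph the share of all genes is not given. A changed count there need not be particular to the members. Dut was higher in basal cells by 0.72 (SE 0.12, adjusted p = 1.66e-05), and by 0.37 at 4 MADs (edgeR adjusted p = 0.0116). At 2 MADs it was at 96.5 and 135 CPM in healthy, 271 and 221 in acute and 193 and 118 in chronic basal cells. In intermediate cells it was at 73.5 and 54.3, 162 and 135, and 72.4 and 109 CPM. The basal level of Dut exceeded its intermediate level in every library. Ung (chr5:114130386-114139323), chosen for its large change, was sparse: it was at 3.11 to 14.5 CPM in basal, 2.18 to 7.16 in intermediate and 8.50 to 30.7 in superficial-marker cells, and its basal to intermediate change of 0.77 at 2 MADs was -0.08 at 4 MADs.

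**Figure D5:**
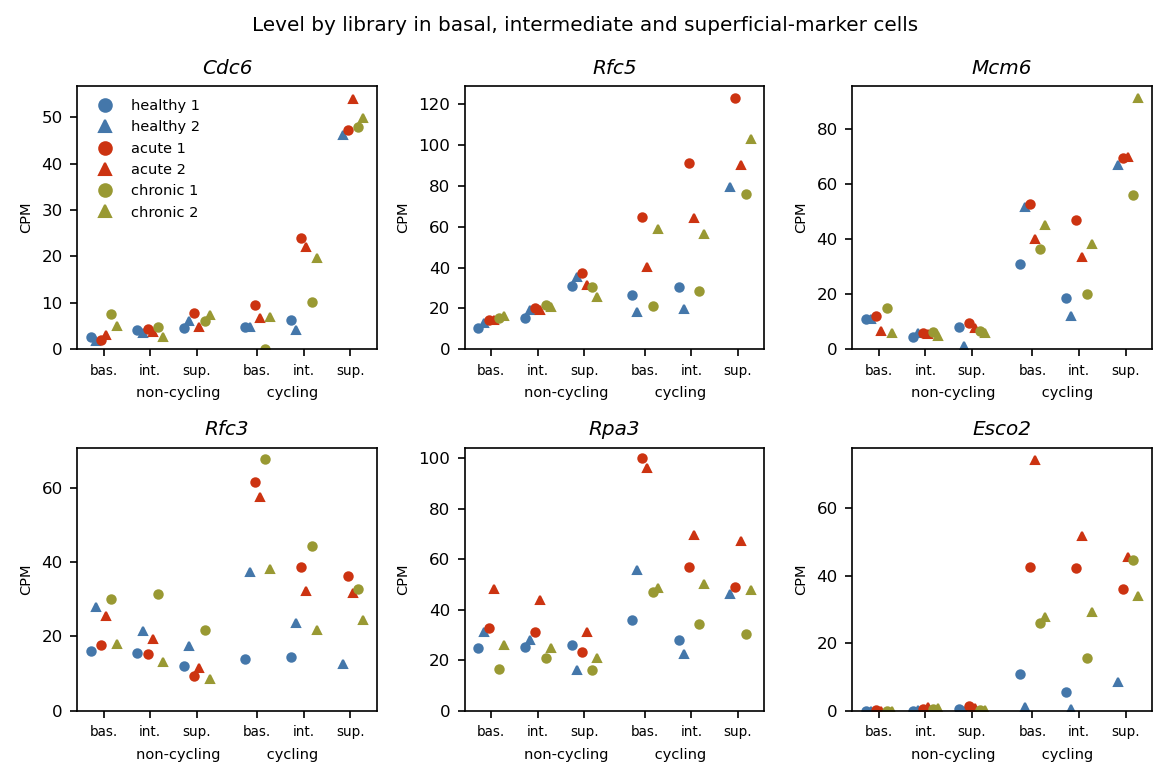
Levels in CPM of 6 members in non-cycling and cycling (2 MADs) basal (bas.), intermediate (int.) and superficial-marker (sup.) cells, with a point for each library coloured by condition. In cycling cells Cdc6 lies at 0 to 9.58 CPM in basal and at 46.1 to 54 CPM in superficial-marker cells, while Rfc3 and Rpa3 have their highest levels (67.9 and 100 CPM) in basal cells.

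Of the 54 G2/M genes, 44 were higher and 0 lower in cycling basal than in cycling intermediate cells (43 and 0 at 4 MADs), and 1 was higher and 39 lower in superficial-marker than in basal cells (0 and 46 at 4 MADs). In superficial-marker against intermediate cells 6 were higher and 1 lower, which turned to 0 higher and 20 lower at 4 MADs. Their use in calling cells cycling makes these counts a description. The shares of all genes called in the same tests are given with the members above. Summed G2/M transcripts were 1856 to 10043 CPM in cycling basal, 1414 to 5602 in intermediate and 3244 to 4646 in superficial-marker cells, so that the G2/M level moved with the compartment, and its part in the members' differences was not tested. Of 55 further replication pathway genes, 50 were tested between compartments. In superficial-marker against intermediate cells 26 were higher and 1 lower, led by the G1/S cyclins Ccne1 (1.44) and Ccne2 (1.43), the nuclease Dna2 (1.10) and E2f1 (1.05). Of the 55, Ccne2, Dtl, Nasp, Gmnn, Pold3, Tipin, Dscc1 and E2f8 were also among the genes used to call cycling cells. The pathway counts between compartments are thus not independent of the calls. Against basal cells 16 were higher and 6 lower, with Ccne1 at 1.71, the phosphatase Cdc25a at 1.29, E2f1 at 1.2, the repressor E2f7 at -1.52 and Dbf4, the activator of Cdc7 kinase, at -1.18. At 4 MADs the 2 comparisons gave 8 higher and 1 lower, and 14 higher and 5 lower, of 48 tested. The share of pathway genes called against basal cells was below that of all genes at both thresholds. Against intermediate cells the share called in either direction was above that of all genes at 2 MADs and close to it at 4 MADs. The share higher was above that of all genes at both thresholds. In all urothelial cells of acute against healthy libraries edgeR called 0 of the 55, with 27 higher and 1 lower at an unadjusted p under 0.05 and a median of 0.86, and DESeq2 called 12. The shares of all genes in that comparison are also given with the members above.

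In the stroma no member passed the test between conditions. Mesenchymal cells numbered 1902 and 1746 in healthy, 493 and 4392 in acute and 1315 and 125 in chronic libraries. They expressed Col1a1 at a mean of 5905 CPM, whereas their summed urothelial markers ran from 680 to 3819 CPM. Their module mean was 3.5 and 3.0 in healthy, 3.93 and 3.45 in acute and 3.36 and 2.77 in chronic libraries, so that both acute means lay above both chronic ones and healthy overlapped each of them. In chronic library 2, with 125 cells, a gene without a UMI allows up to 7.15 CPM, against 0.208 to 1.67 CPM in the other libraries. The part of this depth in its module mean was not tested. edgeR called 0 of 41 members (0% of all genes) in each of the 3 comparisons, and DESeq2 also called 0 (0.014% to 0.154% of genes). In acute against healthy cells 3 members reached an unadjusted p under 0.05 (2.29% of genes): Esco2 (1.74), Tk1 (1.52) and Dut (0.69). In chronic against healthy cells none did, and the median was -0.06. In acute against chronic cells only Rpa3 reached an unadjusted p under 0.05 (log2 fold change 0.97).

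Cdc6 had a small ratio of cycling to non-cycling cells in the stroma. It was at 23.6 and 18.3 CPM in healthy, 22.7 and 23.3 in acute and 48.0 in chronic cycling mesenchymal cells, and at 22.5 and 15.6, 27.0 and 21.5, and 24 and 18.0 CPM in the non-cycling ones. The log2 ratio was 0.22 ± 0.45 (SD, n = 5 libraries with at least 20 cycling cells), with the largest value, 0.97, in chronic library 1. At 4 MADs it was 0.09 ± 1.45 and ran from -1.88 to 1.84. The non-cycling stromal levels lay above every non-cycling urothelial level in these libraries. Rpa1 (0.07) and Orc1 (0.10) had the other small ratios there, but Orc1 had 0 or 1 UMI in the cycling cells of each library, so that its ratio rests on almost no molecules. Tk1 (4.07 ± 0.91), Esco2 (3.71 ± 0.38) and Rrm2 (3.02 ± 1.35) had the largest, and the median ratio of the members was 1.17 in the stroma and 1.64 in the urothelium. At 4 MADs these medians were 2.22 and 2.19. The difference between stroma and urothelium was not tested.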

How the data were processed

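Single-cell libraries of bladder mucosa were made by the authors with a 10x 3′ kit and read with Cell Ranger against mm10, and raw UMI counts per gene and cell were deposited as 1 table per library. Of the barcodes deposited, 13864 of 15062 in acute library 2, 8346 of 8354 and 9688 of 9713 in the healthy libraries and every one in the other 3 libraries passed the filter below. The last line of the table of healthy library 1 is incomplete and was dropped, and 14355 genes common to the 6 tables were used after mitochondrial and ribosomal ones were taken out. A cell was kept with more than 500 genes and a mitochondrial share below 10%. Doublets were called with a Scrublet-type score (scanpy 1.11.5, Python 3.11.15) at 0.8% per 1000 cells, and 1 cluster rich in them was left out. Libraries were integrated with Seurat 5.3.0 and sctransform 0.4.2 (R 4.3.3) over 3000 features that held none of 167 members, cell cycle and pathway genes, and Leiden clusters (20 neighbours, 30 components, resolution 0.8) were named by marker genes. Of the 43 S phase genes of the study's list, 22 are members and were kept out of the cycling calls, whose scores used 100 control genes in 24 bins.

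For each library, UMIs were added up over classes with 20 or more cells. Conditions were compared with edgeR 4.0.16 (TMM, filterByExpr, quasi-likelihood test, all 6 libraries in 1 fit) and compartments with the library as a block, with Benjamini-Hochberg adjustment over all genes tested at 0.05, and with DESeq2 1.42.0 as an alternative. Levels used a pseudocount of 1 CPM on the log2 scale. The study calls the 2 libraries of a condition biological replicates, while the labels do not say which animals each one holds, and p-values measure the spread between these libraries. The study processed its samples in batches, which the labels do not give, so that a batch could not be fitted. Deviations of libraries with the same number correlated weakly and with mixed sign. Without integration, healthy library 1 and acute library 1 shared clusters, as in one of 5757 cells with 3263 and 2299 from them. Their tables also listed fewer genes (15213 and 15065) than those of the other libraries (17764 to 20180). Whether these libraries share a batch was not tested. In simulated data for all urothelial cells, 97% of genes changed 4-fold and 17% of those changed 2-fold were recovered among 13840 genes. In the libraries themselves Clspn, Uhrf1, Tk1 and Rrm2 changed over 4-fold between acute and healthy and were not called. The simulated percentages thus do not bound the change of a gene left uncalled.

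Members given with values in every library were those called in a comparison (up to 6 by size of change) and, in each role, those with the highest mean level and the largest cycling ratio. Others were chosen after their values were seen. The members and lists were chosen with earlier results of these data known. Promoters came from RefSeq (GRCm38.p6) and gene positions from GENCODE M21 (GRCm38). A protein-coding gene annotated on the same strand overlaps 1 member, Cdt1. Protein sequences were not analysed here. Alternatives were DESeq2, no TMM scaling, no filter on low counts, a replicate block, a stricter cell filter (over 1000 genes, under 5% mitochondrial UMIs), doublets kept, clusters without integration, other cycling and compartment calls, a pseudocount of 10 CPM and leaving out each library.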

Additional observations from a re-analysis of the deposited data

Results flagged for a closer look

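The acute effect differed between cycling and non-cycling urothelial cells for 22 members, tested as an interaction within libraries by edgeR's quasi-likelihood test (adjusted p under 0.05), where 3.48% of all genes were called and 1.89% in this direction. In each the log2 fold change of acute over healthy was the larger in cycling cells. The differences were 1.70 for Cdc6, 1.39 for Orc6 and 1.60 for Cdt1 among licensing factors, and 1.19 for Mcm2, 1.21 for Mcm3, 1.04 for Mcm4 and 1.07 for Mcm7 in the helicase. They were 1.24 for Pola1 among polymerases, 1.14 for Pcna, 0.95 for Rfc2, 1.14 for Rfc3 and 1.27 for Rfc5 in the clamp and its loader, and 1.56 for Rpa2 and 0.68 for Rpa3 in RPA. In the remaining roles they were 1.07 for Lig1, 1.12 for Tyms, 1.19 for Rrm1, 1.46 for Rrm2, 0.89 for Dut, 1.27 for Chaf1a, 1.63 for Dnmt1 and 0.68 for Slbp. The number of members called was 0 with cycling cells called at 4 MADs, 0 where the G2/M score alone called them and 0 without healthy library 2. The share of all genes called under these settings is not given, so that the loss need not be particular to the members.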

How the results depend on the processing

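Of the counts, shares and module means recomputed under alternatives, 279 stayed within 1.5 times the count or within the spread between libraries and 64 moved further. Of the fold changes of members called, recomputed likewise, 1236 stayed called in the same direction, 377 were no longer called and 8 changed sign. For basal over intermediate cells these were Mcm6 (-0.036 at 4 MADs, -0.13 with z-score compartments), Ung (-0.078 at 4 MADs, -0.14 with 4 MADs and DESeq2) and Hells (-0.10 with z-score compartments). For the interaction for acute injury they were Chaf1a (-0.11 at 4 MADs, -0.088 with G2/M calls alone) and Lig1 (-0.043 at 4 MADs). In all urothelial cells, acute against healthy (1 member called), the count was 22 with DESeq2 and 0 without TMM, with the replicate block or with the stricter cell filter, and 0 to 12 with a library left out (12 without acute library 2, 2 without acute library 1, 0 without any one of the other 4). Deviations of libraries with the same number correlated at 0.133 (healthy and acute), -0.302 (healthy and chronic) and -0.070 (acute and chronic) in all urothelial cells. DESeq2 called 4 members in chronic against healthy and 1 in acute against chronic urothelium. In cycling cells, acute against healthy (0), it was 22 with DESeq2, 1 without the filter, 2 with 4 MADs and DESeq2 together and 0 to 4 with a library left out (4 without healthy library 1), and chronic against healthy (0) gave 13 and, with 4 MADs and DESeq2, 3. The combined setting and the effect of cell settings on the cycling share were added after the data were seen. For basal over intermediate cells (14 higher, 2 lower) the higher count was 3 at 4 MADs, 4 with G2/M calls alone, 7 with the full lists, 4 with z-score compartments, 23 with the superficial cut at 0.5, 1 with 4 MADs and DESeq2 and 8 to 14 with a library left out (8 without chronic library 1, 9 without healthy library 2). The lower count was 1 with DESeq2 or without TMM, 5 at 4 MADs, 0 with the cut at 0.5 and 1 to 2 with a library left out. For superficial-marker over intermediate cells (31) it was 16 at 4 MADs, 19 with G2/M calls alone, 10 with 4 MADs and DESeq2 and 27 to 32 with a library left out. For superficial-marker over basal cells (21 higher, 3 lower) the higher count was 12 with DESeq2, 10 without TMM, 13 with 4 MADs and DESeq2 and 11 to 21 with a library left out (11 without chronic library 2, 13 without either acute library), and the lower count 1 to 3 (1 without acute library 1). The interaction for acute injury (22) was 11 with DESeq2, 0 at 4 MADs or with G2/M calls alone, 2 with the full lists and 0 to 26 with a library left out (0 without healthy library 2, 12 without acute library 1). That for chronic injury (0) was 1 without TMM, without the filter, at 4 MADs or with G2/M calls alone, and 0 to 4 with a library left out. With a pseudocount of 10 CPM the differences in module mean were 0.58 (acute) and 0.21 (chronic) in all urothelial cells, where they were 1.13 and 0.48, 0.93 in acute cycling cells (1.35), and 0.094 (acute) and 0.061 (chronic) in non-cycling cells (0.25 and 0.16). From summed CPM the chronic urothelial value was 0.41. With a library left out the share of cycling cells differed by 8.98 to 18.3 (acute and healthy), 0.28 to 3.5 (chronic and healthy) and 7.09 to 16.4 (acute and chronic) percentage points. The causes were not tested, and the counts of members here stand without the share of all genes called under the same setting. Sparse members and classes of few cells limit what could be called.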

Other observations

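UMIs of replication genes were also found in the macrophage or myeloid cells of the mucosa, which the comparisons above did not use and which were not tested between conditions. These cells numbered 51 to 268 per library. Their 8 urothelial markers summed to 2415 and 3124 CPM in healthy, 1906 and 2550 in acute and 4996 and 3069 in chronic libraries, against 11638 to 16595 in urothelial cells, and the part of free urothelial RNA in the levels that follow was not tested. Their module mean on the log2(CPM + 1) scale was 3.63 ± 0.46 (SD, n = 2 libraries) in healthy, 4.17 ± 0.11 in acute and 4.43 ± 0.14 in chronic mucosa. Mcm5 was at 11.3 and 18.1 CPM in healthy, 26.9 and 31.2 in acute and 69.6 and 38.7 in chronic macrophages, from 6 to 24 UMIs a library. Pcna was at 32.2 and 36.3, 80.7 and 39.0, and 83.6 and 64.5 CPM, with acute and chronic overlapping. Cdc6 stayed at 0 to 9.67 CPM in these cells, below its stromal level in each library. Myeloid libraries held 295 to 799 UMIs of all 45 members together, so that single genes rest on few molecules.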
